A study of Mus musculus with 12 samples.

Results

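The core loop of the circadian clock was described by 10 genes, Arntl, Clock, Npas2, Per1, Per2, Per3, Cry1, Cry2, Nr1d1 and Nr1d2, followed across 4 groups of mouse white adipocytes. They were taken by gene symbol from the 20295 genes of the count table, and all 10 were present. All 10 also passed the filter on low counts, which kept 13543 genes for testing. After 3 h of ISO, Arntl, Per1 and Cry2 were higher and Per2 and Per3 were lower than without ISO, whether or not lipases were inhibited. Nr1d1 rose with ISO alone and fell with ISO when lipases were inhibited.

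The cells were mature adipocytes of the epididymal fat (eWAs) of lean male C57/BL6J mice, floated out of collagenase-digested tissue and cultured in a hydrogel for 2 days. Every group had this genotype, origin and culture, and the age of the mice is not given in the sources used here. The DMSO group received vehicle, the ISO group received isoproterenol for 3 h, the Lip group received lipase inhibitors, and the Lip+ISO group received the inhibitors first and then ISO. Isoproterenol is an agonist of β-adrenergic receptors that raises cAMP and sets off lipolysis. Per a figure legend of the study, the inhibitors were Atglistatin (against the lipase ATGL) and CAY10499 (against HSL). Each group had 3 libraries, so 12 were compared. The study describes its RNA-seq as made from independent experiments. The labels do not tie libraries to animals or to those experiments, so p-values measure the spread between these cultures. The time of day of harvest is not given in the sources used here.

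In the clock, the proteins of Arntl (also called BMAL1) and of Clock or Npas2 pair up and switch on genes that carry E-boxes in their promoters. Among these are the Per and Cry genes, whose proteins in turn shut off that activator, and Nr1d1 and Nr1d2, which encode the nuclear receptors REV-ERBα and REV-ERBβ. These receptors repress Arntl through elements that they share with the activating ROR receptors. Per1 is also known as a gene that cAMP signaling induces quickly, and REV-ERBα is known in adipose tissue as a repressor of thermogenic genes.

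In the count table (mm9), Arntl spans chr7:120350979-120457640, Clock chr5:76638893-76733817 and Npas2 chr1:39251117-39420085. The repressor genes lie at chr11:68912458-68923459 (Per1), chr1:93312559-93355905 (Per2), chr4:150377764-150418774 (Per3), chr10:84594445-84647799 (Cry1) and chr2:92243804-92274226 (Cry2), and the receptor genes at chr11:98629246-98636691 (Nr1d1) and chr14:19036570-19071620 (Nr1d2). No span overlaps that of another gene of the table.

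The promoters were read for short elements of this loop. RefSeq windows from 250 bases before to 50 bases after a start (GRCm38.p6) were found for 9 of the 10 genes, in 13 windows, and not for Per2. Each window matched the mm9 assembly, the build of the count table, at 1 place. The letters searched on both strands were CACGTG (the E-box), CACGTT (an E-box variant), TTATGTAA (the D-box, bound by Dbp, Tef, Hlf and Nfil3), TGACGTCA (the cAMP response element), TGACG (the core of that element, which each full element also contains) and TAGGTCA (the core of the element bound by ROR and REV-ERB receptors). The E-box was found in windows of Cry1 and Per1 and in 7.15% of all 32851 windows. That of Per1 lay at position -166 in the window of its first listed start, which is not printed below. The variant was found for Cry1, Cry2 and Nr1d1 and in 4.68% of all windows. Only Per3 held the D-box, which 0.938% of all windows held, and its window had 2 copies, at positions -205 and -158 from the start. No window of these genes held the full cAMP response element, which 1.79% of all windows held, whereas the core was found for Cry1, Cry2 and Per1 and in 20.8% of all windows. The ROR core was found for Arntl and in 2.61% of all windows. A match of letters is a description and not a shown binding site.

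The 250 bases before the start are printed for the 2 genes whose response to ISO differed with inhibitors (Nr1d1 and Cry2), for Per1 and Per3, which moved in opposite directions, and for Cry1, which holds several elements and did not pass any test. A 30-base stretch of Arntl is added for its ROR core. In mm9 these lie at chr11:98636692-98636941 (Nr1d1, minus strand), chr2:92274227-92274476 (Cry2, minus strand), chr10:84647800-84648049 (Cry1, minus strand), chr11:68913404-68913653 (Per1, plus strand, before a second start 1196 bases after the one in the count table), chr4:150418775-150419024 (Per3, minus strand) and chr7:120351044-120351073 (Arntl, plus strand, with its ROR core from position 31 counted from the second listed start). All are written 5′ to 3′ on the strand of the gene, and capitals mark the letters searched, on either strand.
Nr1d1: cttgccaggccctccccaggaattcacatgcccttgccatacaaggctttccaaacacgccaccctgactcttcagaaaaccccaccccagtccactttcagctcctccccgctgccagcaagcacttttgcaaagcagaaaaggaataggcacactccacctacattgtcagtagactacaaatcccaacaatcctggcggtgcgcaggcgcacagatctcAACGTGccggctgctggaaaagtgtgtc
Cry2: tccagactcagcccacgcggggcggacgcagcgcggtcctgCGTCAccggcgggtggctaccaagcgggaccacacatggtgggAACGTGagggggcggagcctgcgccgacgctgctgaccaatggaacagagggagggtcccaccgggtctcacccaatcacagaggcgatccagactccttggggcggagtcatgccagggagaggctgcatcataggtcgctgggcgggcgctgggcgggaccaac
Cry1: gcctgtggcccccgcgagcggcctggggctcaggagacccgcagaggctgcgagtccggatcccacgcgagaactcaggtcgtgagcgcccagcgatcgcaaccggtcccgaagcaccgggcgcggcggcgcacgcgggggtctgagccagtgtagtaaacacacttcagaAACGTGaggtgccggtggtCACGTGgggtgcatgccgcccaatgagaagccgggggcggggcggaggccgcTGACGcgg
Per1, second start: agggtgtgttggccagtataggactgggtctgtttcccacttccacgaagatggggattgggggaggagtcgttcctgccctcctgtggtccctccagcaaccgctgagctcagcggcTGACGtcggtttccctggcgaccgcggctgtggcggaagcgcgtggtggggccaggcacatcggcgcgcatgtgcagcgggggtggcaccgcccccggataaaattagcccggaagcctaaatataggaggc
Per3: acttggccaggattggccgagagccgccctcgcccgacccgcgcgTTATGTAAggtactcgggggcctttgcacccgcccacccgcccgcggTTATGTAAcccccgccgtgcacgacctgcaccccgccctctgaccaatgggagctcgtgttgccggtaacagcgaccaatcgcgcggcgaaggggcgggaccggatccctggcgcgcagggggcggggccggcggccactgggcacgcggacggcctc
Arntl: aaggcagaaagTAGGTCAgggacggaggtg

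Libraries held 22632220 to 43707557 counts, a 1.93-fold range, and the 10 genes took 0.0487% to 0.0697% of them. Values are given as CPM, the counts divided by the library size after TMM scaling and set to a common total. The 10 adipocyte markers, among them Adipoq and Plin1, summed to 23186 to 36104 CPM in every library and none was at 0, with 2 of 10 called lower in each response to ISO. Markers of other cells were present at low levels and moved with the groups. The 7 macrophage markers in the table summed to 46.5 to 60.5 CPM in DMSO, 104 to 153 in ISO, 50.3 to 57.0 in Lip and 65.5 to 116 in Lip+ISO, and 6 of 7 were higher in ISO than in DMSO and 3 of 7 in Lip+ISO than in Lip. The 9 fibroblast markers summed to 447 to 786, 892 to 1182, 598 to 636 and 551 to 746 CPM in the same order, 4 of 9 being higher in ISO than in DMSO and 4 of 9 lower when Lip+ISO was set against ISO. The 8 endothelial markers summed to 107 to 199, 192 to 375, 55.1 to 181 and 78.5 to 230 CPM with none called, and the 6 mesothelial markers to 24.8 to 56.6, 65.4 to 75.6, 14.4 to 59.8 and 41.9 to 51.8 CPM, with 1 of 6 called higher in each response to ISO. Over all tested genes, 12.3% were called higher and 13.9% lower in ISO against DMSO, and 11.5% and 15.8% in Lip+ISO against Lip. In Lip+ISO against ISO, 4.59% were called lower. With lists this short, a share near these is no result about the list. None of the markers of other cells was at 0 in a whole group. The part of these cells in the clock results was not tested, and in bulk RNA fewer cells of a type and less RNA per cell cannot be told apart. In a principal component analysis, Lip replicate 3 stood apart from the other libraries on the third component (score -23.1 against -6.35 to 9.62), and leaving it out changed no call of the 10 genes.

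Compared per length, as CPM divided by kilobases of counted exon, Nr1d1 led the loop in DMSO cells at 54.5 ± 0.552 (SD, n = 3). Cry2 followed at 16.8 ± 1.71 and Clock at 13.9 ± 0.776. The ranges of Nr1d2 (9.44 ± 0.666) and Arntl (9.09 ± 0.991) overlapped, as did those of Arntl and Per1 (8.22 ± 1.28). Cry1 (5.35 ± 0.806), Per3 (3.69 ± 0.535), Per2 (1.99 ± 0.369) and Npas2 (0.267 ± 0.0396) came below, each apart from its neighbor. With ISO, Arntl stood second at 39.1 ± 5.58, behind Nr1d1 at 78.2 ± 4.06. In Lip+ISO the order was led by Cry2 at 54.5 ± 11.9 and Arntl at 44.6 ± 6.09, whose ranges overlapped, and Nr1d1 stood below both at 26.8 ± 2.18.

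Arntl, the activator shared by both pairings of the positive limb, was the gene of the loop with the largest rise. Its levels were 26.4, 23.7 and 21.2 CPM in DMSO and 119, 96.8 and 91.0 CPM in ISO. With inhibitors they were 22.5, 24.4 and 27.9 CPM in Lip and 103, 113 and 134 CPM in Lip+ISO. Every library with ISO was above every library without it. The log2 fold change was 2.10 (SE 0.14, edgeR adjusted p = 4.09e-07), or 4.29-fold, in ISO against DMSO and 2.23 (adjusted p = 1.12e-07) in Lip+ISO against Lip. Its level with ISO did not differ detectably with inhibitors, at a log2 fold change of 0.19 (95% confidence interval -0.08 to 0.47) between Lip+ISO and ISO.

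Its partners passed no test. Clock lay between 107 and 149 CPM in all 12 libraries, with overlapping groups, and its log2 fold change in ISO against DMSO was -0.10 (95% confidence interval -0.37 to 0.17, adjusted p = 0.589). Npas2, which can take the place of Clock, was barely measured, with 20 to 45 counts a library and group means of 1.01 to 1.14 CPM. Its interval of -0.67 to 0.71 on the log2 scale in ISO against DMSO leaves changes of that size undetectable at this depth.

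**Figure D1:**
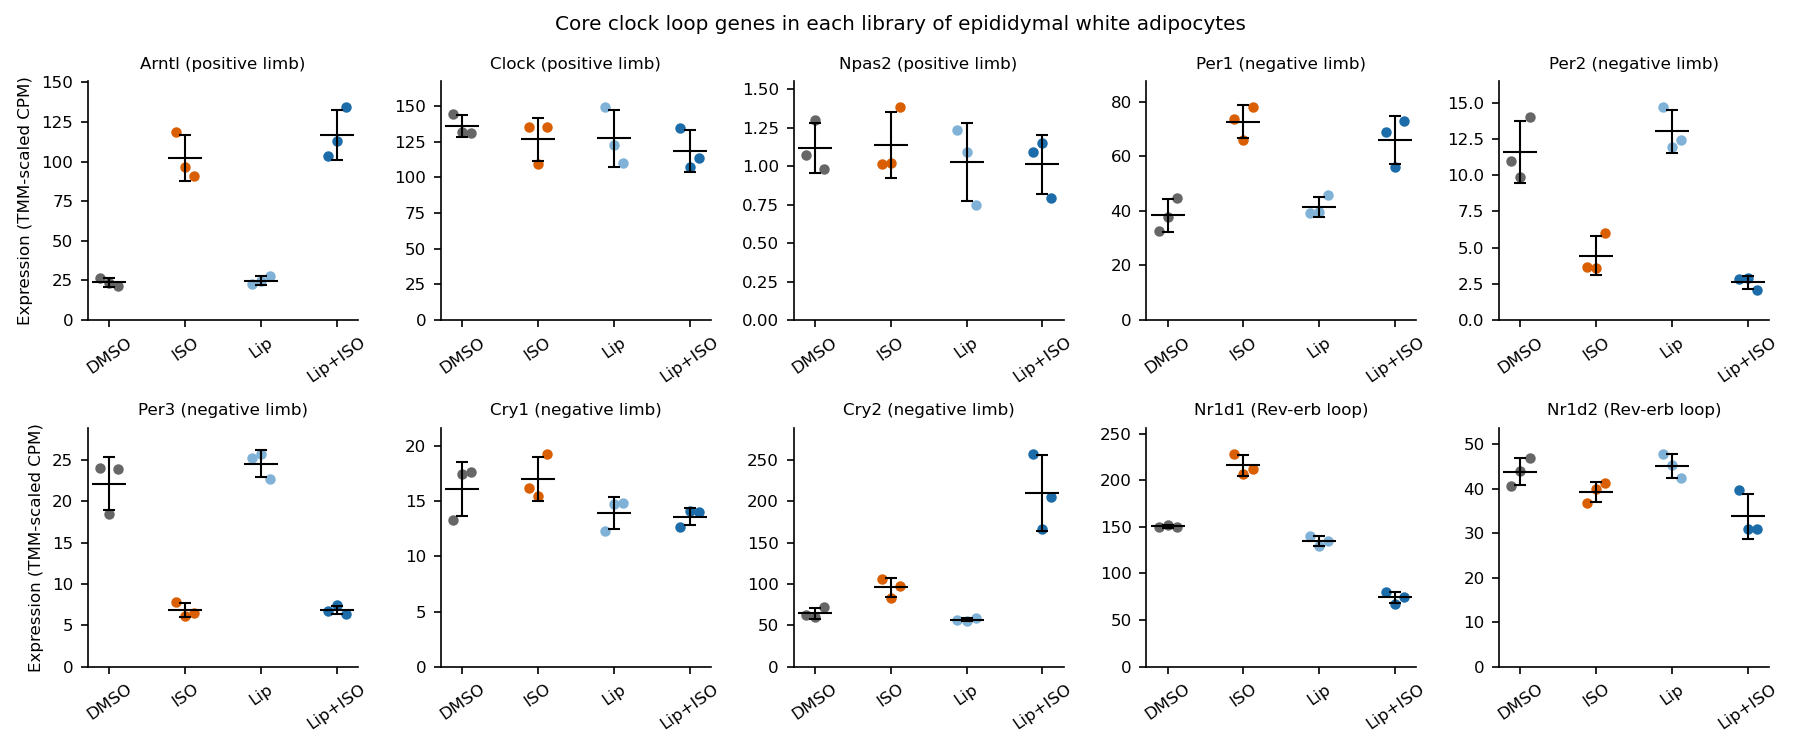
Expression of the 10 core clock loop genes in each of the 12 libraries, in TMM-scaled CPM on linear axes from 0; points are libraries, and lines with bars are group means ± SD (n = 3). Arntl and Per1 sit higher and Per2 and Per3 lower with ISO, whereas Nr1d1 is highest in ISO (mean 216 CPM) and lowest in Lip+ISO (mean 74.2 CPM).

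The Per genes, which encode repressors of the activator, moved in opposite directions. Per1 was at 32.7, 37.7 and 44.6 CPM in DMSO and 73.6, 66.1 and 78.0 CPM in ISO, and at 39.2, 39.6 and 45.7 CPM in Lip and 68.7, 56.0 and 72.9 CPM in Lip+ISO. The groups with and without ISO did not overlap, and Per1 rose by a log2 fold change of 0.92 (SE 0.13, adjusted p = 0.000225) without inhibitors and 0.67 (adjusted p = 0.00164) with them.

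Per3 fell to about the same level in both arms. It was at 24.0, 18.4 and 23.9 CPM in DMSO and at 7.80, 6.13 and 6.53 CPM in ISO, a log2 fold change of -1.70 (SE 0.14, adjusted p = 2.36e-06). It was at 25.2, 25.8 and 22.7 CPM in Lip and at 6.75, 7.41 and 6.39 CPM in Lip+ISO, a log2 fold change of -1.84 (adjusted p = 6.96e-07). Lip+ISO and ISO overlapped, at a log2 fold change of 0.01 (95% confidence interval -0.29 to 0.32). Per3 is the gene whose promoter window held the pair of D-boxes printed above.

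Per2 fell in both arms and was lowest in Lip+ISO. Its levels were 11.0, 9.86 and 14.0 CPM in DMSO and 3.70, 3.62 and 6.01 CPM in ISO, and 14.7, 11.9 and 12.4 CPM in Lip and 2.87, 2.89 and 2.07 CPM in Lip+ISO. The fall was -1.39 on the log2 scale (SE 0.22, adjusted p = 0.000621) without inhibitors and -2.32 (adjusted p = 9.13e-06) with them. All 3 Lip+ISO libraries were below all 3 ISO libraries, but the log2 fold change between them, -0.76 (SE 0.23), had an adjusted p of 0.0647 in edgeR and of 0.027 in DESeq2. The difference between its responses, -0.92, did not pass (adjusted p = 0.2).

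The Cry genes encode the partners of the PER proteins in repression, and they parted. Cry1 lay between 12.3 and 19.3 CPM in all libraries and passed no test, at a log2 fold change of 0.08 (95% confidence interval -0.22 to 0.37) in ISO against DMSO and -0.32 (-0.62 to -0.02, adjusted p = 0.179) in Lip+ISO against ISO. Cry2 was at 62.0, 59.9 and 72.2 CPM in DMSO and 107, 83.4 and 97.4 CPM in ISO, with no overlap. It was at 56.1, 55.2 and 58.7 CPM in Lip and 258, 167 and 205 CPM in Lip+ISO, the highest levels of the gene.

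Cry2 rose by a log2 fold change of 0.56 (SE 0.14, adjusted p = 0.0109) without inhibitors and by 1.89 (adjusted p = 8.65e-07) with them, a difference of 1.32 (SE 0.20, interaction adjusted p = 0.00486). Without replicate 3 in every group the rise without inhibitors had an adjusted p of 0.0698, and without replicate 2 or replicate 3 the difference did not pass, at an adjusted p of up to 0.157. In the mm9 annotation, exons of D930015M05Rik on the other strand cover 4.7% of the exon bases of Cry2, and since the counting is not stated to use strand, reads of both cannot be told apart there.

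Nr1d1 (REV-ERBα) changed direction with the inhibitors. It was at 150, 153 and 150 CPM in DMSO and at 229, 207 and 212 CPM in ISO, so that every ISO library was above every DMSO library. With inhibitors it was at 141, 130 and 135 CPM in Lip and at 79.6, 67.8 and 75.3 CPM in Lip+ISO, and every Lip+ISO library was below every other library. The log2 fold change was 0.52 (SE 0.07, adjusted p = 0.000293) in ISO against DMSO and -0.87 (SE 0.08, adjusted p = 2.81e-06) in Lip+ISO against Lip. The difference between these responses was -1.39 (SE 0.11, interaction adjusted p = 5.05e-05). It was past the threshold in all 15 fits that left out a library or a replicate number. Lip+ISO and ISO differed by a log2 fold change of -1.54 (SE 0.08, adjusted p = 2.7e-07), which made Nr1d1 number 3 of the 13543 genes by p.

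Exons of Thra, on the other strand, cover 8.4% of the exon bases of Nr1d1 in the mm9 annotation, though the spans of the count table do not overlap. Thra, a thyroid hormone receptor gene, averaged 30.8, 28.1, 34.5 and 22.7 CPM in DMSO, ISO, Lip and Lip+ISO. Its log2 fold change was -0.60 (adjusted p = 0.02) in Lip+ISO against Lip and -0.31 (adjusted p = 0.315) in Lip+ISO against ISO. Its part in the counts of Nr1d1 was not tested.

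Nr1d2 (REV-ERBβ) moved less than its paralog. It was at 40.6, 44.0 and 46.8 CPM in DMSO, 36.9, 39.9 and 41.2 CPM in ISO, 47.9, 45.2 and 42.5 CPM in Lip and 39.6, 30.9 and 30.9 CPM in Lip+ISO. DMSO and ISO overlapped (log2 fold change -0.15, adjusted p = 0.299), whereas Lip+ISO lay below Lip at a log2 fold change of -0.42 (SE 0.11, adjusted p = 0.00978). That call was lost in 3 of the 15 fits, without Lip+ISO replicate 2, without replicate 2 and without replicate 3, at an adjusted p of up to 0.167. Between Lip+ISO and ISO, Nr1d2 did not pass (log2 fold change -0.22, adjusted p = 0.232). It passed there in 2 of the 15 fits, without Lip+ISO replicate 1 (adjusted p = 0.0366) and without replicate 1 (adjusted p = 0.0439).

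In ISO against DMSO, 4 of the 10 genes were higher (Arntl, Per1, Cry2 and Nr1d1) and 2 were lower (Per2 and Per3), where 12.3% of all tested genes were called higher and 13.9% lower. In Lip+ISO against Lip, 3 were higher and 4 were lower, where 11.5% and 15.8% of all tested genes were called. Over the 10 genes the median log2 fold change came to 0.05 and -0.07 in these comparisons, beside 0.00 and -0.00 over all tested genes.

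The inhibitors alone left no called change. None of the 10 genes passed in Lip against DMSO in edgeR or in DESeq2, where 0.00738% of all tested genes were called higher and 0.0443% lower. In edgeR 0 of the 10 had an unadjusted p under 0.05, and the share of all tested genes under that level was not taken. Nr1d1 had the smallest p of the 10 (0.0563), as number 653 of the 13543 genes by p. Its log2 fold change was -0.16 (95% confidence interval -0.32 to 0.00), with Lip below DMSO in every library. Between Lip+ISO and ISO, Cry2 was higher and Nr1d1 lower in Lip+ISO and the other 8 genes did not pass, where 4.36% and 4.59% of all tested genes were called. The same 2 genes passed the test of the interaction, where 0.901% were called higher and 0.724% lower. These comparisons share libraries with each other and are not independent.

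**Figure D2:**
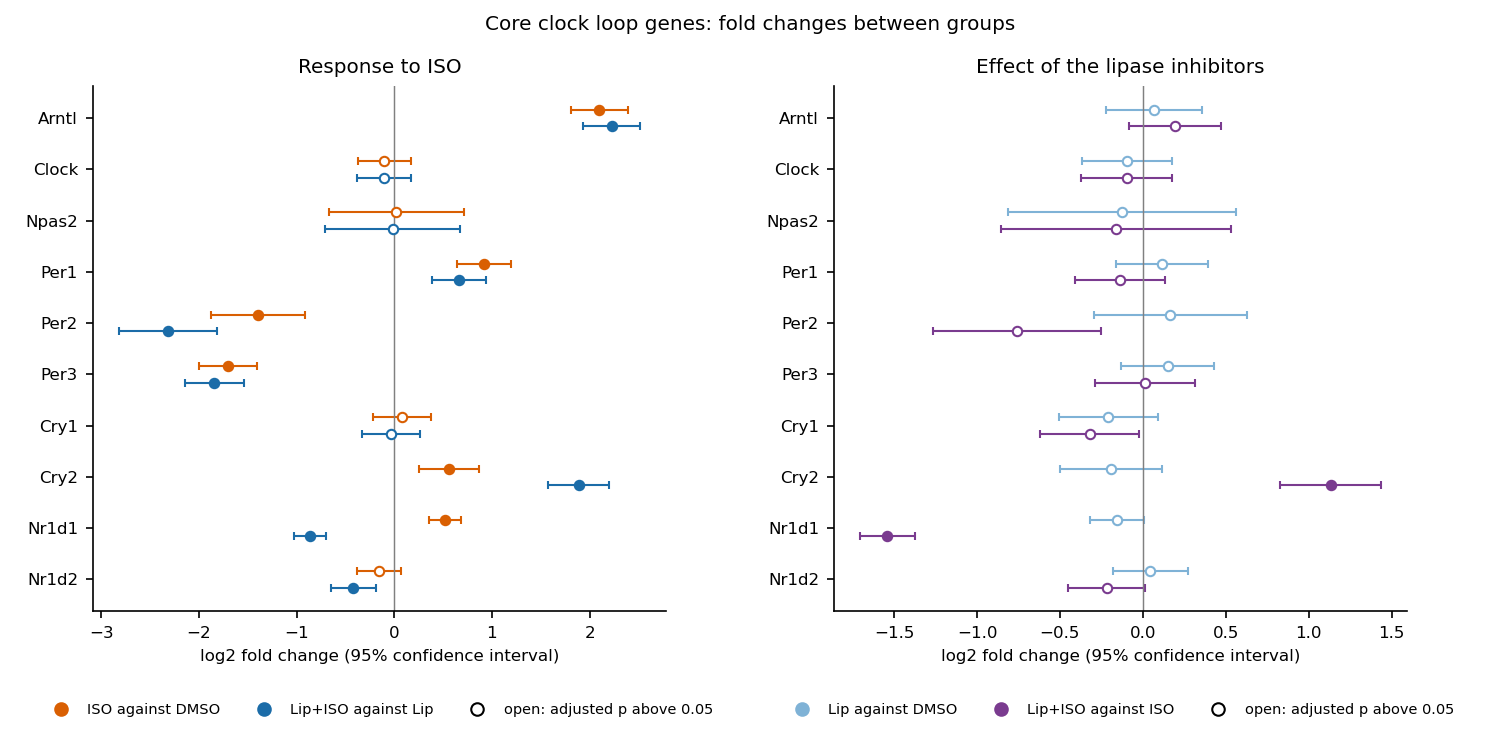
Log2 fold changes of the 10 genes with 95% confidence intervals from edgeR; the left panel shows ISO against DMSO and Lip+ISO against Lip, the right panel Lip against DMSO and Lip+ISO against ISO, and filled points have an adjusted p at or under 0.05. Nr1d1 lies on opposite sides of 0 in the left panel (0.52 and -0.87), and only Cry2 and Nr1d1 are filled on the right.

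Ratios within a library do not depend on library scaling, and they set the genes of the loop against each other. Per base of counted exon, Arntl was at 0.166 of Nr1d1 in DMSO and 0.194 in Lip, at 0.497 in ISO and at 1.66 in Lip+ISO (means taken on the log2 scale). The log2 ratios were -2.59 ± 0.16 (SD, n = 3), -2.36 ± 0.19, -1.01 ± 0.14 and 0.73 ± 0.24, so the Lip+ISO libraries were the ones in which Arntl exceeded Nr1d1 in counts per base. Proteins were not measured. The ratio of Per1 to Per2 was 4.15 in DMSO and 4.00 in Lip but 21.0 in ISO and 31.8 in Lip+ISO. That of Per1 to Per3 was 2.23 and 2.17 without ISO and 13.7 and 12.3 in ISO and Lip+ISO. Cry2 to Cry1 was 3.16 and 3.19 without ISO, 4.40 in ISO and 11.9 in Lip+ISO. Nr1d1 to Nr1d2 was 5.79 in DMSO, 9.23 in ISO, 5.03 in Lip and 3.70 in Lip+ISO.

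**Figure D3:**
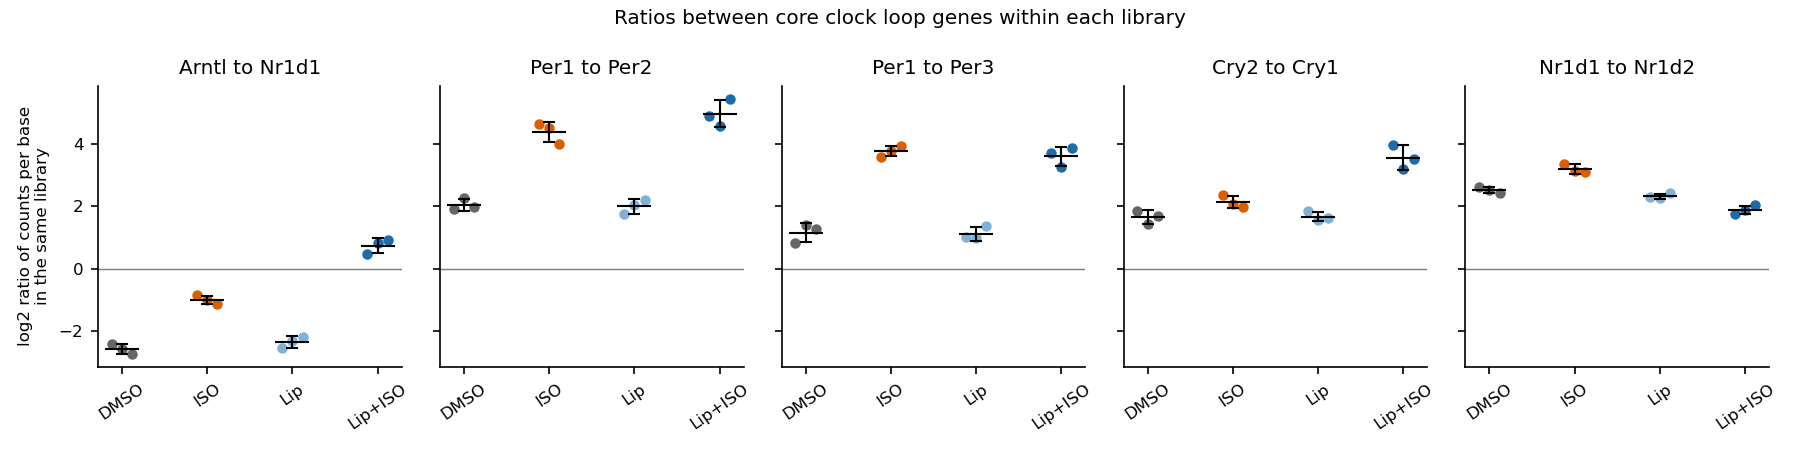
Log2 ratio of counts per base of counted exon between pairs of core clock loop genes in the same library; points are libraries and lines with bars are group means ± SD (n = 3). The ratio of Arntl to Nr1d1 passes 0 in Lip+ISO alone (0.46 to 0.92 on the log2 scale).

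Genes whose log2 CPM followed a clock gene most closely over the 12 libraries were taken from the 8571 tested genes with a mean of at least 10 CPM, as a description. The libraries fall into those with and without ISO, and Pearson's r was taken over all of them. For Arntl these were Uap1 (r = 0.99), Ucp1 (r = 0.99), the uncoupling protein of thermogenic fat, and Emd (r = 0.99). Ucp1 averaged 0.467, 128, 0.742 and 231 CPM in DMSO, ISO, Lip and Lip+ISO. For Per1 they were Dusp1 (r = 0.98), Pim1 (r = 0.98) and Atf3 (r = 0.98), of which Dusp1 and Atf3 are known as immediate-early genes. Dusp1 averaged 68.0, 209, 88.6 and 199 CPM in the same order. For Nr1d1 they were Plxna2 (r = 0.97), Boc (r = 0.96) and Bcar3 (r = 0.96), each highest in ISO and lowest in Lip+ISO. Plxna2 averaged 129, 167, 91.3 and 49.7 CPM.

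Around the loop, 15 accessory clock genes and 6 output genes were tested. Of the accessory genes 3 were higher and 2 lower in ISO against DMSO, and 4 and 2 in Lip+ISO against Lip. Of the output genes 2 were higher and 2 lower, and 2 and 3, in the same comparisons. Over all tested genes, 12.3% were called higher and 13.9% lower in the first of these comparisons and 11.5% and 15.8% in the other, and with lists this short a share near these is no result about the list. None of the 21 passed in Lip against DMSO in edgeR or DESeq2, and 1 accessory gene, Ncor1, had an unadjusted p under 0.05 there (log2 fold change -0.18). Between Lip+ISO and ISO, the accessory genes Csnk1d (0.36) and Fbxw11 (0.30) and the output gene Usp2 (1.37) were higher in Lip+ISO, and the ROR receptor genes Rora (-0.32) and Rorb (-1.07) were lower, in log2 fold changes, where 4.36% and 4.59% of all tested genes were called. The call of Usp2 was kept in all 15 fits with libraries left out. Those of Csnk1d and Rora were lost in 6 of the 15 each, at an adjusted p of up to 0.299 and 0.183, and that of Fbxw11 in 13, at up to 0.264, and all 3 were lost with the compared groups alone. There the adjusted p was 0.0876 for Csnk1d and 0.0708 for Rora, and Fbxw11, also lost with library totals and without a filter, reached 0.131 among these settings.

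Rorb, a ROR receptor, was low throughout but rose from a mean of 0.288 ± 0.0909 CPM in DMSO to 2.47 ± 0.269 in ISO (log2 fold change 3.09) and from 0.373 ± 0.0717 in Lip to 1.17 ± 0.251 in Lip+ISO (1.64). Without replicate 1 in every group the second of these calls was lost (adjusted p = 0.0616). Its difference between Lip+ISO and ISO, -1.07, had an adjusted p of 0.0479 and passed in none of the 15 fits with libraries left out. Bhlhe40, a repressor that competes for E-boxes, rose from 51.7 ± 6.19 to 171 ± 27.2 CPM with ISO (log2 fold change 1.72). With inhibitors it rose from 54.9 ± 1.11 to 125 ± 42.3 CPM (1.19), and its Lip+ISO libraries spanned 96.3 to 174 CPM. Its difference between Lip+ISO and ISO, -0.45, did not pass (adjusted p = 0.169). Without Lip+ISO replicate 1 that difference passed (-0.76, adjusted p = 0.00401), as did the interaction (adjusted p = 0.0282). Csnk1d, a kinase of the PER proteins, rose by 0.51 and 0.87 on the log2 scale. The log2 fold changes of the 2 accessory genes that fell in both arms were -0.33 and -0.38 for Btrc and -0.42 and -0.46 for Ncor1, the corepressor of REV-ERB. The calls of Btrc were lost in 7 and in 2 of the 15 fits, at an adjusted p of up to 0.151 and 0.112, and those of Ncor1 in none. Btrc encodes a ubiquitin ligase subunit that acts on PER proteins. Fbxw11 did not pass in ISO against DMSO (0.14, adjusted p = 0.207). It was higher in Lip+ISO against Lip (0.46, adjusted p = 0.00091), a call kept in all 15 fits.

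The factors that bind the D-box moved in different directions. Nfil3, the repressor, rose from 62.2 ± 4.12 CPM in DMSO to 354 ± 75.8 in ISO and from 69.4 ± 4.98 in Lip to 487 ± 68.8 in Lip+ISO, at log2 fold changes of 2.51 and 2.81. Every Lip+ISO library was above every ISO library for Nfil3. The log2 fold change between them, 0.46, had an adjusted p of 0.0606 in edgeR and of 0.0145 in DESeq2. The activators Dbp and Tef fell. Dbp went from 21.6 ± 4.63 to 13.3 ± 3.30 CPM with ISO (log2 fold change -0.71, adjusted p = 0.0466) and from 25.7 ± 5.29 to 10.8 ± 3.41 CPM with inhibitors (-1.25, adjusted p = 0.00186), and the first of these calls was lost in 8 of the 15 fits, at an adjusted p of up to 0.19. The log2 fold changes of Tef were -0.60 and -0.82, and Hlf, the other activator, did not pass in either (0.11 and -0.22).

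Usp2, a deubiquitinase under clock control, rose from 7.73 ± 0.457 CPM in DMSO to 44.1 ± 10.9 in ISO and from 9.72 ± 1.18 in Lip to 114 ± 7.27 in Lip+ISO. Its log2 fold changes were 2.51 and 3.55, and the difference of 1.04 passed (adjusted p = 0.0286) but was lost in 10 of the 15 fits, at an adjusted p of up to 0.339. Wee1, a cell cycle kinase under clock control, had a log2 fold change of -0.45 (adjusted p = 0.213) in ISO against DMSO and -1.04 (adjusted p = 0.00813) in Lip+ISO against Lip, and the second was lost without replicate 2 or replicate 3 in every group, at an adjusted p of up to 0.0801.

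**Figure D4:**
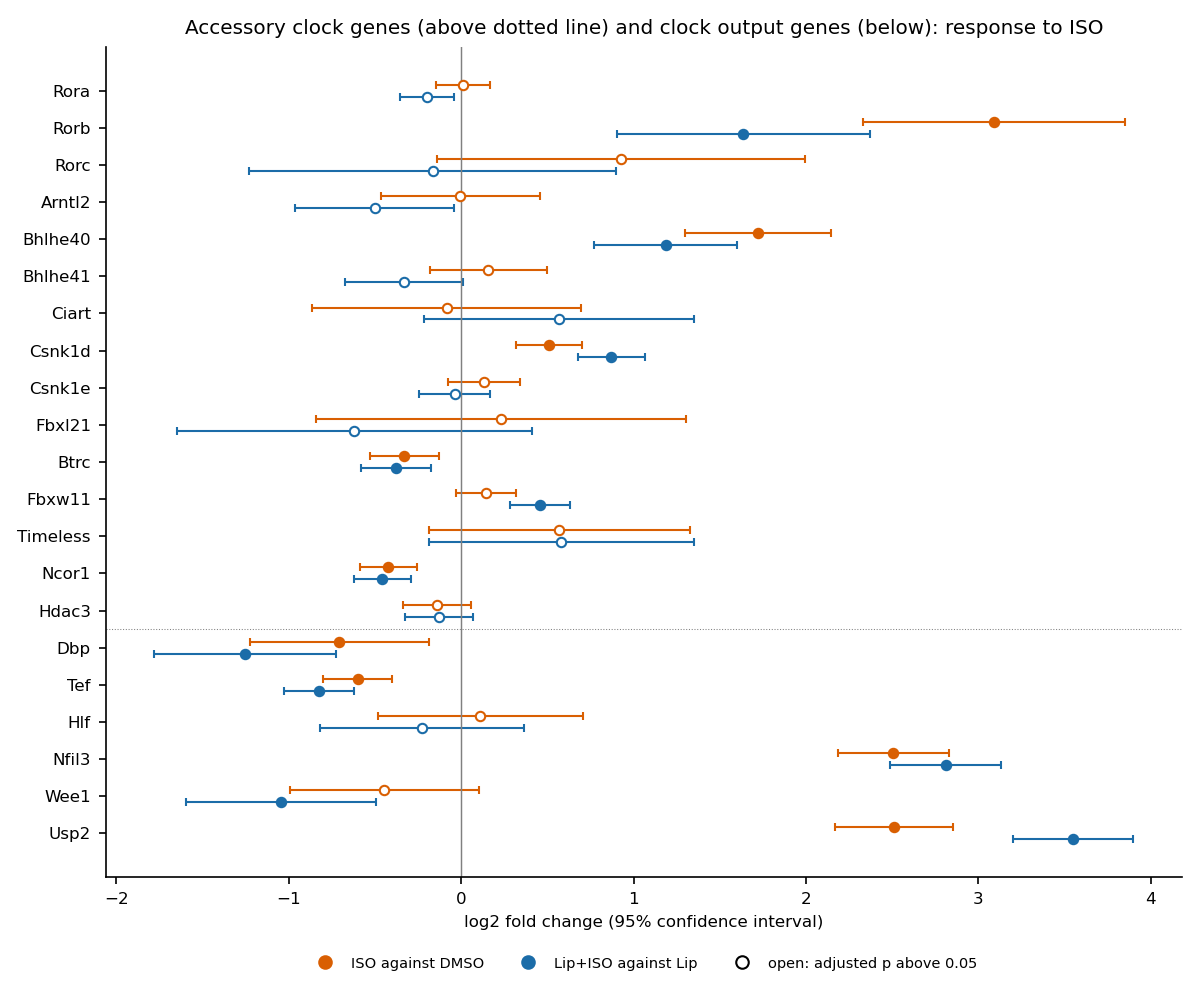
Log2 fold changes with 95% confidence intervals from edgeR of 15 accessory clock genes (above the dotted line) and 6 clock output genes (below) in ISO against DMSO and Lip+ISO against Lip; filled points have an adjusted p at or under 0.05. Nfil3 and Usp2 lie farthest to the right in both comparisons among the output genes (2.51 and 2.51, 2.81 and 3.55).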

How the data were processed

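RNA sequencing libraries of 12 cultures of eWAs (TruSeq2) were compared. The deposited values are unnormalized read counts for each gene and library, which the authors made with STAR 2.4.2a (mm9), HOMER and iRNA-seq, which kept 1 read per position and read length. It also gives, as deposited, gene positions, whose starts were raised by 1, and the lengths of counted exons. Whether the counting used strand, and the dose of ISO, are not given in the sources used here. A figure legend of the study names SR-3420 as the stimulus for white adipocytes, whereas the sample titles name ISO, which was used. Groups and replicate numbers came from the titles.

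Genes were kept by filterByExpr in edgeR 4.0.16 (R 4.3.3), scaled by TMM (factors 0.924 to 1.07) and tested with the two-sided quasi-likelihood F-test over all 12 libraries with 1 mean per group. P-values were adjusted over 13543 genes by the Benjamini-Hochberg method and called at or under 0.05 with no minimum fold change. The interaction subtracts the response to ISO without inhibitors from that with them. Scripts were tested on simulated data without a replicate structure, for comparisons between a pair of groups and not for the interaction. The genes and lists were chosen with earlier results of these data known. Named genes are the 10 of the loop, genes overlapping them, accessory and output genes called with a log2 fold change of at least 1, and the 3 closest in pattern to Nr1d1, Arntl and Per1. Csnk1d, Btrc, Ncor1, Fbxw11, Rora, Tef and Hlf were named after their values had been seen. The accessory list was shortened by a gene that is not reported here. Alternatives were DESeq2 1.42.0, library totals, no filter, only the compared groups, a minimum log2 fold change of 1, a replicate block and 15 fits leaving out libraries. CPM under 0.0678 to 0.132 is under 3 counts, and this covers counting error only.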

Additional observations from a re-analysis of the deposited data

Results flagged for a closer look

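The response to ISO differed with inhibitors, by the test of the interaction, for 3 of the named genes. Over all tested genes, 0.901% were called higher and 0.724% lower in that test. The response of Nr1d1 was lower with inhibitors by a log2 difference of -1.39 and that of Cry2 higher by 1.32. For Usp2 it was higher by 1.04. The call of Nr1d1 was kept in all 15 fits with libraries left out. That of Cry2 was lost in 2, at an adjusted p of up to 0.157, and that of Usp2 in 10, at up to 0.339. In Lip+ISO against ISO, which is not the interaction, the 3 Lip+ISO libraries lay below all ISO libraries for Nr1d1. They lay above them for Cry2 and Usp2. The cause of these differences was not tested. Groups of 3 are too small for a search for single libraries far from the others.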

How the results depend on the processing

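In each response to ISO, Arntl, Per1, Per2, Per3 and Nr1d1 kept their call and the direction given for that response under DESeq2, library totals, no filter, the replicate block, the compared groups alone and all 15 fits with libraries left out. The cause of the changes below was not tested except where the setting itself shows it. Shares of all tested genes were taken for the main fits alone. The counts of genes below have none beside them and are no result about the lists. With a minimum log2 fold change of 1, the loop genes higher in ISO against DMSO were 1 and those lower in Lip+ISO against Lip were 2, and the accessory and output genes lower were 0 and 2. In Lip+ISO against ISO, the loop genes lower were 2 with DESeq2 and with the block (Per2 joined, adjusted p = 0.027 and 0.0413). The accessory and output genes higher there were 1 with the compared groups alone and with the minimum, and those lower were 4 with library totals, 5 with the block, 1 without a filter or with the minimum and 0 with the compared groups alone. In the interaction, 1 was lower with the block. Same-number libraries deviated together in 17 of 18 pairs by a correlation over 0.1 (lowest 0.0373, median 0.274). The median over pairs of other numbers was -0.121. All 12 libraries were closest to their own number, a hint from the data that a number marks a shared experiment, which the labels do not state. The main fits did not use the number. The block changed no other call of the loop genes. Calls it added among the other genes included Nfil3 (log2 fold change 0.47, adjusted p = 0.0211) and Bhlhe40 (-0.47, adjusted p = 0.0491) in Lip+ISO against ISO. The interaction of Dbp also passed with the block (-0.56, adjusted p = 0.0408).

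Over the 15 fits, the loop genes higher in ISO against DMSO were 3 to 4, those lower in Lip+ISO against Lip 3 to 4, those lower in Lip+ISO against ISO 1 to 2 and those higher in the interaction 0 to 1. The accessory and output genes lower were 2 to 4 in ISO against DMSO and 3 to 6 in Lip+ISO against Lip. In Lip+ISO against ISO they were 1 to 3 higher and 0 to 3 lower, and in the interaction 0 to 1 in each direction. Small log2 values without a call changed sign. Npas2 was -0.017 with library totals in ISO against DMSO and 0.022 with DESeq2 in Lip+ISO against Lip, Per3 was -0.019 with library totals in Lip+ISO against ISO, and Clock was 0.016 with DESeq2 in the interaction. With libraries left out, Npas2 spanned -0.22 to 0.22 and Cry1 -0.046 to 0.20 in ISO against DMSO. In Lip+ISO against Lip, Clock spanned -0.21 to 0.039, Npas2 -0.20 to 0.15 and Cry1 -0.11 to 0.010. In Lip against DMSO, Arntl spanned -0.10 to 0.22, Npas2 -0.32 to 0.055, Per3 -0.0052 to 0.26, Nr1d2 -0.057 to 0.14 and Bhlhe40 -0.0052 to 0.16. In Lip+ISO against ISO, Npas2 spanned -0.34 to 0.14, Per3 -0.12 to 0.14 and Wee1 -0.64 to 0.036. In the interaction, Clock spanned -0.11 to 0.14, Npas2 -0.28 to 0.16 and Cry1 -0.22 to 0.0075. Depth limits Npas2, at 20 to 45 counts a library.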
